A study of Mus musculus with 5 samples.

Results

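The ribonuclease A family was described through 9 genes listed by name: Rnase9, Rnase10, Rnase11, Rnase12 and Rnase13, which the choice called epididymal, and Rnase1, Rnase4 and Ang, which it called widespread. Rnase6 was counted with the widespread genes here. All 9 were found by gene ID among the 78334 genes of the count table, and all 9 passed the low-count filter, which left 29855 genes to be tested. RNA came from tissue labelled as visceral fat of male C57BL/6 mice, in 5 libraries of 3 groups. The control library came from standard chow with vehicle. The 2 diabetes libraries carried intraperitoneal streptozotocin (70 mg/kg, on day 2 of life), which destroys pancreatic beta cells, a diet with 60% of its energy as fat begun at 3 weeks and kept for 8 weeks, and vehicle. The 2 curcumin-treated libraries had the same injection and diet, and curcumin, a turmeric polyphenol, at 50 mg/kg each day by gavage for 28 days, begun at 11 weeks of age. The sources do not tell whether libraries of a group were separate mice, nor which fat depot was taken, so p-values here measure only the spread between these libraries, which may be technical.

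Ribonuclease A enzymes are small secreted proteins, held together by disulphide bonds, that cut single-stranded RNA. Rnase1, Rnase4, Rnase6 and Ang keep the catalytic residues of the family, whereas Rnase9 to Rnase13 have lost some or all of them and are known for secretion into the lumen of the epididymis, the duct in which sperm mature. In male mice this duct lies against the gonadal fat pad, and Rnase10 is known to be needed for sperm to process the surface protein ADAM3. Inside cells the ribonuclease inhibitor Rnh1 binds and blocks the active members.

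The libraries differed in the tissue they held. Total counts ran from 25378046 to 42422890. Levels are in CPM, counts scaled to the library total, and where a gene has 0 counts the limit of 3 counts corresponds to 0.0707 to 0.118 CPM. The adipocyte hormones Adipoq and Lep, which define the labelled tissue, had 408 and 278 counts in control 1, 34 and 94 in diabetes 1, and 60 and 305 in curcumin-treated 2. In diabetes 2 they had 40867 and 138413 counts, and in curcumin-treated 1 they had 4993 and 6705. The lipocalins Lcn8 and Lcn5 stand first in the list of 12 epididymal markers. Together the 12 took 7.20% of all counts in control 1, 6.85% in diabetes 1 and 10.9% in curcumin-treated 2. They took 0.601% in curcumin-treated 1 and 4 counts in diabetes 2. Gpx5 held the largest part of the marker counts in control 1 (41.4%), diabetes 1 (45.4%) and curcumin-treated 2 (50.8%). The 8 smooth muscle markers took 4.31% in curcumin-treated 1 and 0.106% to 0.246% in the other 4 libraries. Intervals and limits given here are 95% and cover counting error only.

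The promoters of the genes on which the results turn are shown first. They are the bases before the RefSeq start of each gene on GRCm38.p6, chromosome 14, read on the gene's own strand and trimmed to leave out exons. Capitals mark 2 motifs, searched on both strands: TGTTCT, reading AGAACA on the other strand, a half-site of the androgen receptor, and AGGAAG, reading CTTCCT on the other strand, the core bound by the PEA3 group of ETS factors. Both kinds of factor are known regulators of genes in the head of the epididymis. Among 32851 RefSeq windows of 300 bases, 19.0% held the half-site and 35.4% held the PEA3 core.
Rnase9: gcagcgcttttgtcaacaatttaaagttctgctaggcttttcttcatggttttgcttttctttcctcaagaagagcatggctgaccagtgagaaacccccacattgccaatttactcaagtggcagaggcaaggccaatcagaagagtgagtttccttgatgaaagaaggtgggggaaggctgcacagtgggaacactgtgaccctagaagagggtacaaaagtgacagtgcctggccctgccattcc
Rnase10: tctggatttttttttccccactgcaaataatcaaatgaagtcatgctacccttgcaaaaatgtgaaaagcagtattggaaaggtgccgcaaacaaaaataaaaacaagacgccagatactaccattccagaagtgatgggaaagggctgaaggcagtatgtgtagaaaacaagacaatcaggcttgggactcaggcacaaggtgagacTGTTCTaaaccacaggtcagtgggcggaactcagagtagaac
Rnase13: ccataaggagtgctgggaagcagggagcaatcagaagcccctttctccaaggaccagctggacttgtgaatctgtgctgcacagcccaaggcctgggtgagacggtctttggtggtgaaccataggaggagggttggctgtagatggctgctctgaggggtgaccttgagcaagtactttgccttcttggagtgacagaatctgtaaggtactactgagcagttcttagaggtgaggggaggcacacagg
Rnase12: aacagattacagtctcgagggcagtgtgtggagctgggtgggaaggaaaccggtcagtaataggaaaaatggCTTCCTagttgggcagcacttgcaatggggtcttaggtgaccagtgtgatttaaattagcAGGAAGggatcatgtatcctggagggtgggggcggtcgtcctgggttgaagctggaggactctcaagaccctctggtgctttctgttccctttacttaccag
Rnase4 and Ang: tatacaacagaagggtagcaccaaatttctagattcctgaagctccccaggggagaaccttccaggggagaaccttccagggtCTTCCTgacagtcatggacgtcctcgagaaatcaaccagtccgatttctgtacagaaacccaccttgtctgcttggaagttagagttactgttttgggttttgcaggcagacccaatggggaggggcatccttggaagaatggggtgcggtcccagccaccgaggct

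The Rnase9 stretch is chr14:51041870-51042117 on the minus strand and held neither motif. The Rnase10 stretch, chr14:51007501-51007750 on the plus strand, lies before the outer of its 2 annotated starts and held 1 androgen half-site. The Rnase13 stretch, chr14:51922774-51923023 on the minus strand, held neither. The Rnase12 stretch, chr14:51057259-51057492 on the minus strand, ends 16 bases before the start and held 2 PEA3 cores. Rnase4 and Ang share a start, the first of 2 listed for Rnase4, so that chr14:51090827-51091076 on the plus strand serves both, with 1 PEA3 core. The motif matches did not overlap each other. The shares over all RefSeq windows are for 300 bases, from 250 before the start to 50 after it, and not for these trimmed stretches. In its full window Rnase9 held 1 androgen half-site, after the start, and Rnase10 held 2, of which 1 crosses the start. The windows of the other genes shown held the same matches as their stretches. With motifs this common, a match or its absence describes the letters of the window and no more.

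Rnase9 to Rnase13 together gave 5992 CPM in control 1, 7685 in diabetes 1 and 5947 in curcumin-treated 2, or 0.599%, 0.768% and 0.595% of all counts. The same 5 genes gave 26.4 CPM in curcumin-treated 1 and 0.276 CPM in diabetes 2, where they held 7 counts in all. The library order of this sum did not follow the treatment groups: each of the diabetes and curcumin-treated pairs had 1 library at or above 5947 CPM and 1 at or below 26.4 CPM. The 3 rich libraries were those in which the epididymal markers took 6.85% to 10.9% of counts, and the part of those markers in the levels was not tested. In bulk RNA, fewer cells of a type and less RNA per cell cannot be told apart.

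**Figure D1:**
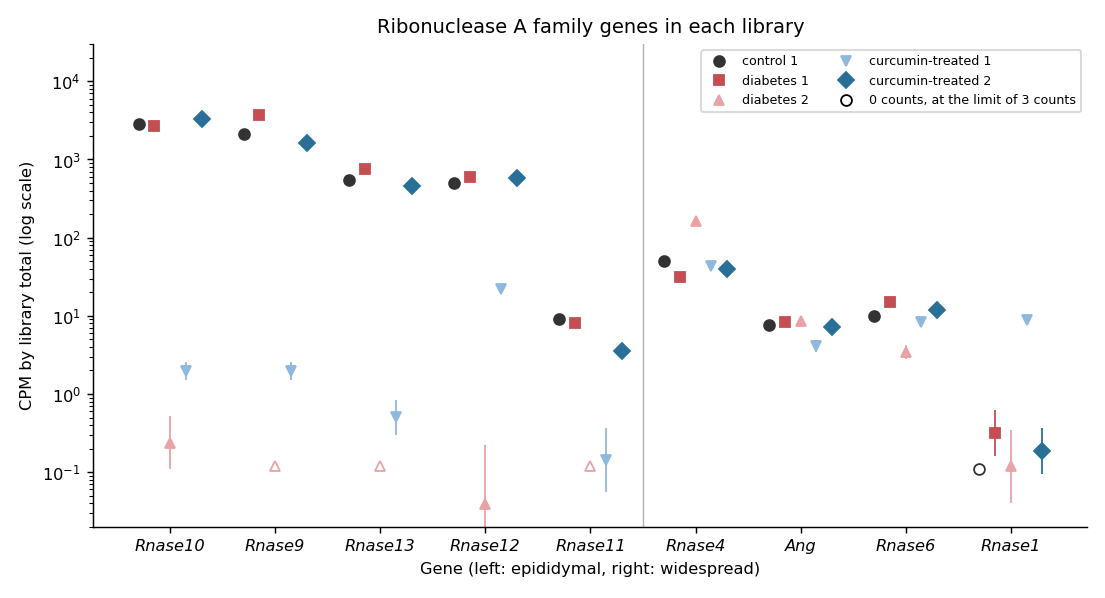
CPM of the 9 genes (log axis) in each of the 5 libraries, with 95% Wilson intervals of counting error as bars where they exceed the symbol; open symbols are counts of 0, drawn at the limit of 3 counts. Rnase9, Rnase10, Rnase12 and Rnase13 lie between 459 and 3667 CPM in control 1, diabetes 1 and curcumin-treated 2, and at or below 21.8 CPM in the other 2 libraries.

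Rnase10 (ENSMUSG00000021872), the member tied to ADAM3, had 2836 CPM in control 1, 2649 and 0.236 in diabetes 1 and 2, and 1.98 and 3280 in curcumin-treated 1 and 2. The 3 rich libraries lay within 1.24-fold of each other, while each group of 2 was split between a rich and a poor library. Curcumin-treated 1 was 1340-fold to 1659-fold below them.

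Rnase9 (ENSMUSG00000052382), a secreted member without ribonuclease activity, had 2102 CPM in control 1, 3667 in diabetes 1, and 1.98 and 1623 in curcumin-treated 1 and 2. It had 0 counts in diabetes 2, which puts the 3 rich libraries at least 13727-fold to 31017-fold higher against a limit of 3 counts. Its order among the rich libraries differed from that of Rnase10: Rnase9 was highest in diabetes 1 and lowest in curcumin-treated 2, and Rnase10 the reverse. Per Rnase10 count there were 0.741 Rnase9 counts in control 1, 1.38 in diabetes 1 and 0.495 in curcumin-treated 2.

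Rnase13 (ENSMUSG00000068392), a further secreted member, had 541.9 CPM in control 1, 762.3 in diabetes 1, and 0.503 and 459.0 in curcumin-treated 1 and 2, and 0 counts in diabetes 2. It was highest in diabetes 1 and lowest of the 3 rich libraries in curcumin-treated 2, the order of Rnase9. Its ratio to Rnase10 was 0.191 (0.188 to 0.194) in control 1, 0.288 (0.283 to 0.292) in diabetes 1 and 0.140 (0.138 to 0.142) in curcumin-treated 2. These intervals did not overlap. In curcumin-treated 1, where Rnase10 was some 1340-fold or more lower, the ratio was 0.255 (0.131 to 0.464), from 14 and 55 counts. That value lay within the range of the rich libraries, with an interval wider than that range.

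Rnase11 (ENSMUSG00000059648) was the scarcest of the 5, with 9.07 CPM in control 1, 8.09 in diabetes 1 and 3.54 in curcumin-treated 2. It had 4 counts in curcumin-treated 1 and 0 in diabetes 2. The same 3 libraries were high, and the depth of the other 2 leaves little room for ratios.

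Rnase12 (ENSMUSG00000068407) kept more of its level in curcumin-treated 1 than Rnase9, Rnase10 and Rnase13 did. It had 502.9 CPM in control 1, 598.5 in diabetes 1, 21.8 in curcumin-treated 1, 581.7 in curcumin-treated 2 and 1 count in diabetes 2. Curcumin-treated 1 lay 23.1-fold to 27.5-fold below the 3 rich libraries for Rnase12, against 821-fold to 1854-fold for Rnase9 and 912-fold to 1515-fold for Rnase13. For Rnase11, with 4 counts there, the range was 24.6-fold (9.41 to 91.4) to 63.0-fold (24.3 to 233.2), which overlaps that of Rnase12. There were 0.177, 0.226 and 0.177 Rnase12 counts per Rnase10 count in control 1, diabetes 1 and curcumin-treated 2, and 11.0 (8.34 to 14.8) in curcumin-treated 1. Against Rnase13 the ratio was 0.785 to 1.27 in the rich libraries and 43.2 in curcumin-treated 1. Both ratios in curcumin-treated 1 come from 1 library, with 55 counts of Rnase10 and 14 of Rnase13 below the line, so they have no replicate.

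The epididymal markers of that library were also of another make-up. Crisp1, a secreted protein of the epididymis that binds sperm, held 165926 of the 167191 marker counts in curcumin-treated 1, or 99.2%. At 5965 CPM it was higher there than in the rich libraries. It had 2610 CPM in control 1, 1700 in diabetes 1 and 333.8 in curcumin-treated 2, and 0 counts in diabetes 2. The 11 other markers, among them Lcn8 with 127 counts and Lcn5 with 234, gave 1265 counts there and 1699807 to 4609570 in the rich libraries. The members were therefore set per 1000 marker counts in 2 ways, over all 12 markers and, as a choice made after the values were seen, over the 11 without Crisp1. The 2 scales place curcumin-treated 1 differently.

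Over all 12 markers, Rnase10 had 39.4 in control 1, 38.7 in diabetes 1, and 0.329 (0.248 to 0.428) and 30.1 in curcumin-treated 1 and 2. Rnase9 had 29.2, 53.5, 0.329 (0.248 to 0.428) and 14.9 in the same order, and Rnase13 had 7.52, 11.1, 0.0837 (0.0458 to 0.140) and 4.21. These 3 genes were far below the rich libraries in curcumin-treated 1. Rnase12 had 6.98, 8.74, 3.62 (3.34 to 3.92) and 5.34, and so was low there by much less. Rnase11 had 0.0239 (0.00652 to 0.0613) in curcumin-treated 1, from 4 counts, against 0.0324 to 0.126.

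Over the 11 markers without Crisp1 the reading turned round. Rnase10 had 43.5 (32.8 to 56.6) in curcumin-treated 1 against 30.2 to 40.9 in the rich libraries, Rnase9 had 43.5 (32.8 to 56.6) against 14.9 to 54.9, and Rnase13 had 11.1 (6.05 to 18.6) against 4.22 to 11.4. These 3 genes were then within or near the range of the rich libraries, and Rnase12, at 478 (441 to 518) against 5.35 to 8.96, was far above it. Rnase11 was above it too, at 3.16 (0.862 to 8.10) against 0.0325 to 0.131. Which level counts as usual for curcumin-treated 1 thus depends on whether Crisp1 is among the markers, while the ratios between the members do not use the markers. Diabetes 2, with 4 marker counts, gives no ratio.

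**Figure D2:**
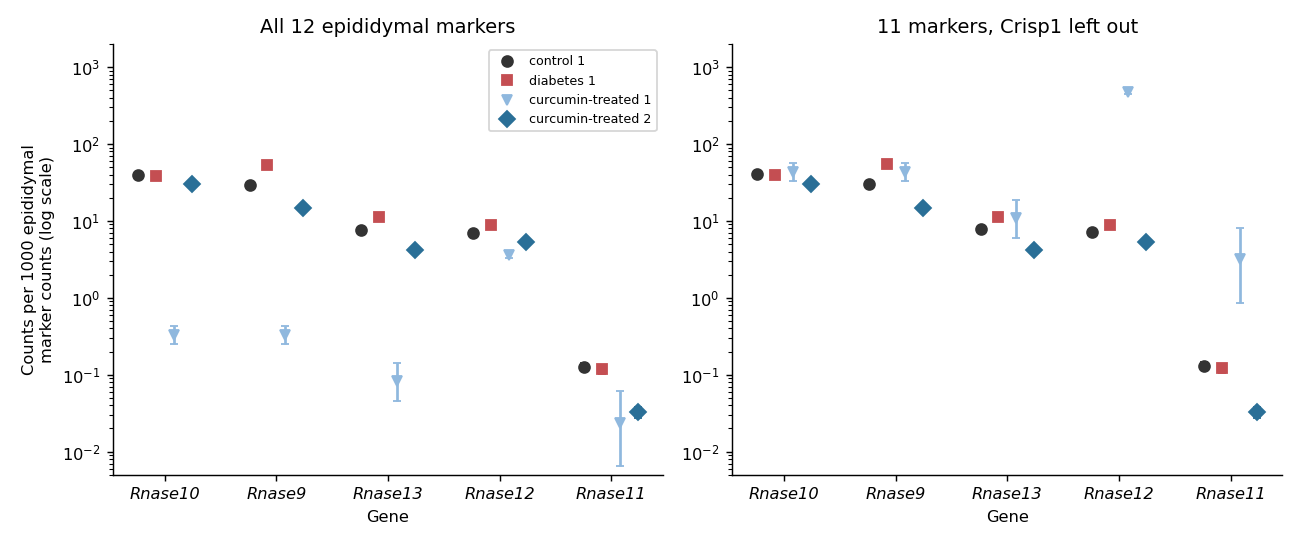
Counts of the 5 epididymal members per 1000 epididymal marker counts (log axes) in the 4 libraries with more than 4 such counts, over all 12 markers (left) and over 11 without Crisp1 (right); bars are 95% intervals of counting error. In curcumin-treated 1, Rnase10 lies at 0.329 on the left and 43.5 on the right, and Rnase12 at 3.62 on the left and 478 on the right.

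The genes sit together on chromosome 14, where 8 of the 10 protein-coding genes from Rnase10 to Rnase1 are members, in the order Rnase10, Rnase9, Rnase11, Rnase12, the olfactory receptor Olfr750, Ang and Rnase4, Eddm3b, Rnase6 and Rnase1. Rnase13 lies beyond, with 17 protein-coding genes between it and Rnase1. Eddm3b, which encodes another epididymal secretory protein, was read as a neighbour that is not a member. It had 247.8 CPM in control 1, 334.8 in diabetes 1, 1 count in diabetes 2, 59.9 CPM in curcumin-treated 1 and 104.2 in curcumin-treated 2. Like Rnase12, it kept a level in curcumin-treated 1 that Rnase9 and Rnase10 did not: there were 0.363 Rnase12 counts per Eddm3b count in curcumin-treated 1 (0.331 to 0.399), and 1.79 to 5.58 in the rich libraries. Olfr750 had 10 counts at most in any library, although it lies between Rnase12 and Ang. The levels along the cluster thus changed from gene to gene and not in 1 block, with Rnase4, Ang and Rnase6 at a few to some 160 CPM in every library beside neighbours at or near 0.

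**Figure D3:**
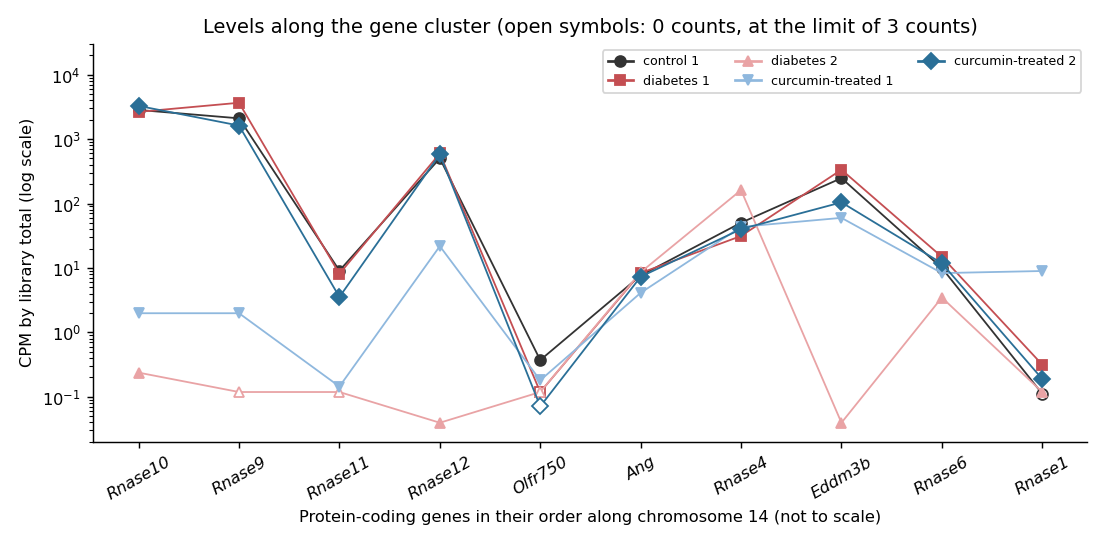
CPM (log axis) of the 10 protein-coding genes in their order along the cluster, drawn at even spacing and not to scale, with 1 line per library; open symbols are counts of 0, drawn at the limit of 3 counts. Diabetes 2 is at or near the limit for Rnase10, Rnase9, Rnase11, Rnase12 and Eddm3b and is the highest library for Rnase4.

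Rnase4 (ENSMUSG00000021876), a secreted ribonuclease that cuts after uridine, had 50.3 CPM in control 1, 31.3 and 161.6 in diabetes 1 and 2, and 43.4 and 40.0 in curcumin-treated 1 and 2. Diabetes 2 was the high library, 3.21-fold (3.02 to 3.42) above the control and 5.17-fold (4.79 to 5.58) above diabetes 1. The 2 curcumin-treated libraries lay between the 2 diabetes libraries, so those groups overlapped. Diabetes 2 was also the library with the highest share of the 10 adipocyte markers (2.21%, against 0.00574% to 0.285% elsewhere), of the 6 fibroblast markers (0.215% against 0.0277% to 0.120%) and of the 10 macrophage markers (0.216% against 0.0179% to 0.0419%). Dcn held 53.6% of the fibroblast marker counts in diabetes 2, and Pdgfra and Col1a1, others of them, were not highest there. Col1a1 held 79.2% of the fibroblast marker counts in curcumin-treated 2. Pdgfra had 79.1 CPM in diabetes 2, against 159.6 in control 1, 145.1 in diabetes 1, and 32.6 and 135.6 in curcumin-treated 1 and 2. The part of adipocytes, fibroblasts and macrophages in the level of Rnase4 was not tested. The 6 liver markers were at most at 0.00220%, in diabetes 2.

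Ang (ENSMUSG00000072115), angiogenin, which is secreted, promotes vessel growth and cuts tRNA in stressed cells, was the steadiest member. It had 7.62 CPM in control 1, 8.33 and 8.55 in diabetes 1 and 2, and 4.10 and 7.28 in curcumin-treated 1 and 2. Curcumin-treated 1 was low, at 0.479 to 0.563 of each other library with every interval below 1. For each pair of the other 4 libraries the 95% interval of the ratio included 1. Both curcumin-treated values lay below both diabetes values, the latter pair by the small margin between 7.28 and 8.33 CPM. Rnase4 and Ang overlap by 219 exon bases on the same strand in GENCODE's M21 annotation, 13.4% of the exon length of Rnase4 and 18.2% of that of Ang, so part of their reads cannot be assigned to either with certainty. The ratio of Rnase4 to Ang counts was 6.60 in control 1, 3.75 and 18.9 in diabetes 1 and 2, and 10.6 and 5.50 in curcumin-treated 1 and 2. The 2 genes therefore did not keep a fixed ratio to each other. RefSeq also lists a second start for Rnase4, which Ang does not have, and counts per gene do not tell the starts apart.

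Rnase6 (ENSMUSG00000021880), an antimicrobial ribonuclease known from macrophages and monocytes, had 9.99 CPM in control 1, 14.9 and 3.47 in diabetes 1 and 2, and 8.30 and 11.8 in curcumin-treated 1 and 2. It was lowest in diabetes 2, at 0.233 to 0.418 of the other libraries. That is the library with the most macrophage transcripts: Adgre1 and Csf1r, the defining markers, had 230.2 and 270.5 CPM there, against 4.36 to 15.1 and 27.0 to 54.4 elsewhere. Rnase6 and the macrophage markers thus stood in opposite order in diabetes 2.

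Rnase1 (ENSMUSG00000035896), the secreted pancreatic ribonuclease, which endothelium also makes, was nearly confined to 1 library. It had 0 counts in control 1, 8 and 3 in diabetes 1 and 2, and 249 and 8 in curcumin-treated 1 and 2. Curcumin-treated 1 had 8.95 CPM (7.91 to 10.1), which was 28.5-fold diabetes 1 (14.2 to 66.7), 47.5-fold curcumin-treated 2 and 75.7-fold diabetes 2 (25.6 to 370), and at least 80.6-fold higher than control 1 against a limit of 3 counts. The 2 curcumin-treated libraries did not share the level. The 9 pancreatic acinar markers were highest in diabetes 2, with 2636 counts, against 688 in curcumin-treated 1 and 249 to 552 elsewhere. Cela1 held 94.3% to 100% of these counts in each library. The list without Cela1 gave 39 counts over 8 genes in curcumin-treated 1, with 1 count of Cpa1, and 0 to 24 counts in the other libraries. The 8 endothelial markers took 0.0246% in curcumin-treated 1, inside the range of the other 4 libraries (0.00748% to 0.0382%). Smooth muscle markers were highest in that library, and their part in the level of Rnase1 was not tested.

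Levels per kilobase of exon allow the genes to be ranked within a library. In control 1 Rnase9 (1768 CPM per kilobase) and Rnase10 (1703) led, followed by Rnase12 (747.2), Rnase13 (383.8), Rnase4 (30.7), Rnase11 (12.7), Ang (6.34) and Rnase6 (3.75). Diabetes 1 had the same first 4, with Rnase9 at 3084 and Rnase10 at 1591 CPM per kilobase, and in curcumin-treated 2 Rnase10 (1970) passed Rnase9 (1365). In diabetes 2 Rnase4 led the 9 genes with 98.7 CPM per kilobase, before Ang with 7.11 and Rnase6 with 1.30. Ear2, a gene of the family outside the 9, had 59.5 CPM per kilobase there. Curcumin-treated 1 had a mixed order, Rnase12 at 32.3, Rnase4 at 26.5 and Rnase1 at 9.02 CPM per kilobase, then Ang at 3.41, Rnase6 at 3.11, Rnase9 at 1.66 and Rnase10 at 1.19. Rnase9 and Rnase10 thus changed places between the rich libraries, so their order is not fixed. Rnase11 and Ang stood at 4.96 and 6.06 CPM per kilobase in curcumin-treated 2, the reverse of their order in control 1 and diabetes 1. That step is small, from 150 and 309 counts, and no interval was taken for it. Rnase12 and Rnase13 kept the third and the fourth place in all 3 rich libraries.

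The make-up of the summed counts of the 9 genes showed the same 3 states. Rnase10 was the largest part in control 1 (46.8%) and curcumin-treated 2 (54.6%), and Rnase9 in diabetes 1 (47.4%). Rnase4 made up 92.9% of the 4416 counts of the 9 genes in diabetes 2. That sum leaves out Ear2, another gene of the family, which had 1085 counts there. In curcumin-treated 1, with 2535 counts of the 9 genes, Rnase4 held 47.7%, Rnase12 23.9%, Rnase1 9.82% and Rnase6 9.11%. Rnase9 and Rnase10 held 2.17% each.

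**Figure D4:**
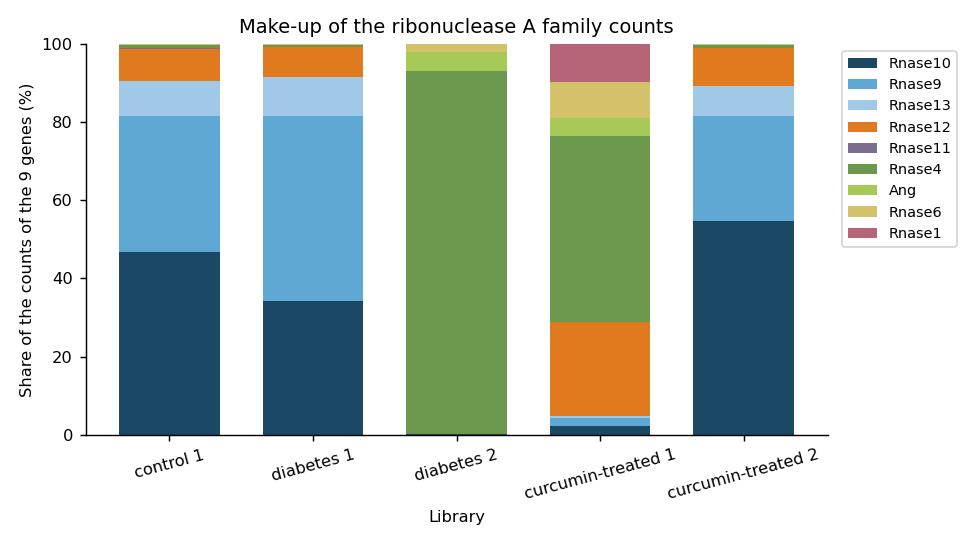
Share of each gene in the summed counts of the 9 genes (%), as 1 stacked bar per library. Rnase9, Rnase10, Rnase12 and Rnase13 fill nearly all of control 1, diabetes 1 and curcumin-treated 2, Rnase4 fills 92.9% of diabetes 2, and curcumin-treated 1 is divided among Rnase4, Rnase12, Rnase1 and Rnase6.

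The first comparison asked whether curcumin changed the members in diabetic mice. No member passed the test: edgeR's quasi-likelihood test called 0 of the 9 members and 0% of the 29855 genes, of which 696 had an unadjusted p under 0.05. DESeq2 called 93 genes and limma-voom 0, and no member was among them. Rnase10 had a log2 fold change of 0.51 (SE 3.37) in curcumin-treated over diabetes, Rnase9 -0.98 (SE 3.59), Rnase13 -0.53 (SE 3.37), Rnase12 0.20 (SE 2.78) and Rnase11 -0.94 (SE 2.37). These standard errors exceed the estimates, since each group joined a rich and a poor library. Leaving out diabetes 1 moved Rnase9 to 17.71 and leaving out curcumin-treated 2 moved it to -9.88 on the log2 scale, both set by a single library of a group. The first sets diabetes 2 at 0 counts, so it depends on the small count that the fit adds and is no measure of size, and the second rests on the 55 counts of curcumin-treated 1.

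The widespread members had smaller errors. Ang averaged 5.69 ± 2.25 CPM (SD, n = 2) in curcumin-treated and 8.44 ± 0.156 CPM (SD, n = 2) in diabetes libraries, a log2 fold change of -0.55 (SE 0.73, edgeR adjusted p = 0.908). The value was -0.12 without curcumin-treated 1 and -1.17 without curcumin-treated 2. It was the only member whose 2 groups did not overlap, lower in curcumin-treated, as were 9.72% of all genes tested; 17.9% of genes were higher without overlap, and 0 members were. Rnase4 averaged 41.7 ± 2.41 against 96.4 ± 92.2 CPM (SD, n = 2 each), a log2 fold change of -1.29 (SE 0.87, edgeR adjusted p = 0.852), and without diabetes 2 the value was 0.51. Rnase6 averaged 10.05 ± 2.46 against 9.16 ± 8.05 CPM (SD, n = 2 each), a log2 fold change of 0.21 (SE 0.84). Rnase1 averaged 4.57 ± 6.20 against 0.216 ± 0.139 CPM (SD, n = 2 each), a log2 fold change of 4.30 (SE 1.86, edgeR adjusted p = 0.852), carried by curcumin-treated 1. Without that library Rnase1 did not pass the low-count filter. Over the 9 members the median log2 fold change was -0.53, beside 0.05 over all genes tested, and 4 members were above 0 and 5 below. An exact permutation test of 2 libraries against 2 cannot go below p = 0.333.

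**Figure D5:**
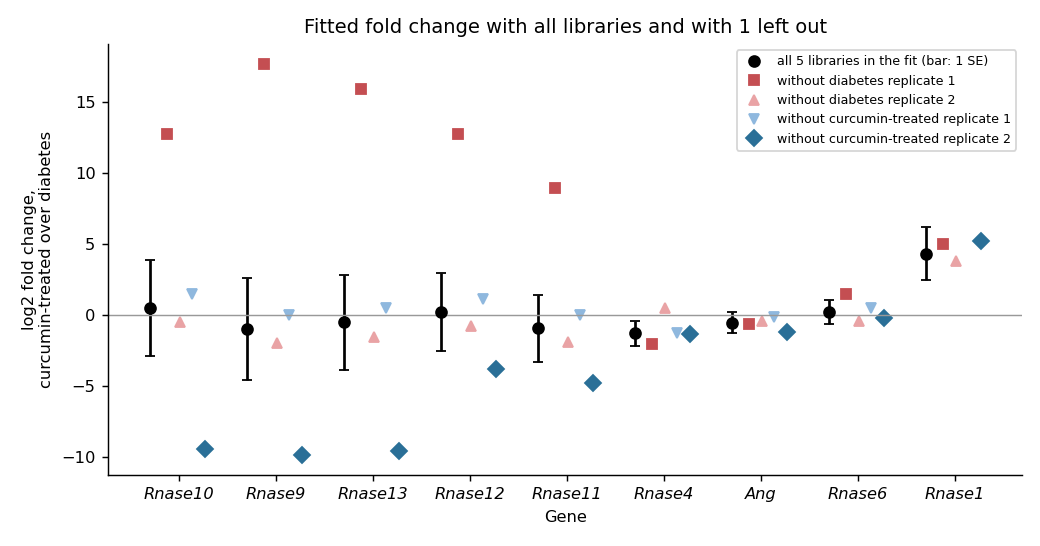
log2 fold change of each member in curcumin-treated over diabetes libraries, with all 5 libraries in the fit (black, bar 1 SE) and with each replicated library left out (coloured); without diabetes 1, the values of Rnase9, Rnase11 and Rnase13 stand against 0 counts and depend on the count added by the fit. Ang keeps its sign in every fit drawn. Rnase1 does so too, but it has no value without curcumin-treated 1, the library that carries its fold change. The other 7 genes have values on both sides of 0.

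The second comparison set the diabetes model against the control, which had 1 library and was assumed to vary like the others. Again edgeR's test called 0 of the 9 members and 0% of all genes, of which 440 had an unadjusted p under 0.05, and every member's adjusted p was 1. DESeq2 called 55 genes and limma-voom 0, with no member among them. Both diabetes libraries were above the control for 2 members, Rnase1 and Ang, against 17.3% of all genes, and below it for 2 members, Rnase10 and Rnase11, against 34.5%. Ang was 8.44 ± 0.156 CPM (SD, n = 2) against 7.62, a log2 fold change of 0.30 (SE 0.90), a step no larger than counting error allows. Rnase1 rested on 8 and 3 counts against 0. Rnase4 had a log2 fold change of 1.16 (SE 1.10), which was -0.64 without diabetes 2, and Rnase10 of -1.06 (SE 3.99), which was -0.06 without it. The median over the 9 members was -0.15, beside 0.07 over all genes; Rnase1, whose fitted value has no upper bound against a control at 0, lies above that median wherever it is placed.

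The third comparison, curcumin-treated against control, used the same control library. No member passed: edgeR called 0 of the 9 members and 0% of all genes, with 112 at an unadjusted p under 0.05, and every member's adjusted p was 1. DESeq2 called 71 genes and limma-voom 0, again without a member. Both curcumin-treated libraries were above the control for 1 member, Rnase1, against 24.6% of all genes. They were below it for 5 members (Rnase9, Rnase11, Rnase13, Rnase4 and Ang), against 34.0% of all genes. Among these, Rnase4 was 41.7 ± 2.41 CPM (SD, n = 2) against 50.3, a log2 fold change of -0.13 (SE 1.04), and Ang 5.69 ± 2.25 CPM (SD, n = 2) against 7.62, a log2 fold change of -0.25 (SE 0.88). The median over the 9 members was -0.50, beside 0.17 over all genes. The comparisons share the control or the diabetes libraries, so their values are not independent of each other.

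Genes that work with the family were read from fixed lists. Rnh1, the ribonuclease inhibitor, had 245.9 CPM in control 1, 268.5 and 219.7 in diabetes 1 and 2, and 145.0 and 215.2 in curcumin-treated 1 and 2, so that it was lowest where Ang was lowest. Plxnb2, a receptor of angiogenin, had 97.4 to 150.7 CPM and Nsun2, which methylates tRNA and shields it from angiogenin, 57.8 to 93.4 CPM. Trdmt1, a second tRNA methylase, had 1.49 to 4.77 CPM. None of these 4 genes passed edgeR's test in any of the 3 comparisons.

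Of 11 other genes of the family, 3 passed the filter and none was called. Ear2, an eosinophil-associated ribonuclease also made by macrophages, had 0 counts in control 1, 34 and 1085 in diabetes 1 and 2, and 85 and 22 in curcumin-treated 1 and 2. It was thus highest, at 42.8 CPM, where Rnase6 was lowest. Ear1 reached 30 counts in diabetes 2, or 1.18 CPM. Ear genes are close copies of each other, so their reads may be shared. The eosinophil markers Epx and Prg2 had 0 and 4 counts in diabetes 2, and 77 and 23 in curcumin-treated 1. All 5 eosinophil markers together had 14 counts in diabetes 2, led by Siglecf (64.3%). They had 119 counts in curcumin-treated 1 and at most 15 in the remaining libraries. The part of eosinophils in the level of Ear2 was not tested. Of 9 ribonucleases outside the family, 9 were tested and 0 were called in each comparison.

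The ADAM3 pathway of sperm maturation, to which Rnase10 belongs, had 6 genes tested and 0 called in each comparison. Ros1, a receptor needed to form the first segment of the duct, had 204.8 CPM in control 1, 303.8 and 0 in diabetes 1 and 2, and 2.73 and 181.0 in curcumin-treated 1 and 2. Ovch2, a protease of the duct lumen, had 785.4, 957.4, 0, 0.791 and 857.7 CPM in the same order. Both were high in the 3 libraries in which Rnase10 was high. Etv4, an ETS factor of the PEA3 group, had 105.9, 62.1, 0.670, 9.96 and 134.6 CPM, and Etv5, its relative, 284.3, 230.6, 14.3, 27.9 and 305.3 CPM. In curcumin-treated 1 they kept more of their level in the rich libraries than Ros1 and Ovch2 did. Nell2, the ligand of Ros1, was highest in curcumin-treated 1 at 2.91 CPM and at most 0.296 CPM elsewhere, and Adam3 itself had at most 5.11 CPM.

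Likeness of pattern was measured as the root-mean-square difference of log2 CPM, centred on each gene's mean, over the 5 libraries. Rnase10 and Rnase13 were the closest pair of members, at 0.38, against 0.91 for Rnase9 and Rnase10 and 0.80 for Rnase9 and Rnase13. Among the other genes, the closest to Rnase10 were Ly6g5b (0.21), Clpsl2 (0.22) and Defb12 (0.25), and the closest to Rnase13 were Epp13 (0.17), Muc5b (0.19) and Ovch2 (0.30). Rnase9 was closest to Lypd8 (0.40), Cst11 (0.45) and Adam7 (0.49). Rnase12 had another set, C4bp (0.33), Spink10 (0.43) and Rbm11 (0.43), and Rnase11 was closest to Dcdc2a (0.13). The nearest gene to Rnase1 was Spon2 at 0.73, and no gene came within 0.5. For the steadier genes likeness says little: 917 genes lay within 0.5 of Rnase4, 1487 of Rnase6 and 2992 of Ang. With 5 libraries, 3 of them rich in epididymal transcripts, these distances largely follow that split and carry no test.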

How the data were processed

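Whole-number counts per gene, not normalised, were deposited by the authors in a table covering all 5 libraries. FastQC, featureCounts and the build GRCm39 are named, per the submitters' processing notes; for the aligner, annotation and strand setting, nothing is given in the sources used here. Gene IDs gave a symbol for 51486 genes. Levels are CPM by library total, with Wilson 95% intervals. Exon lengths came from GENCODE M21 on GRCm38, and promoters, present for all 9 members, from RefSeq GRCm38.p6; deposited counts hold no coordinates. Of 78334 genes, 29855 passed filterByExpr. They were fitted in 1 model of all 5 libraries with edgeR 4.0.16 (TMM, robust quasi-likelihood, 2 residual degrees of freedom, two-sided, Benjamini-Hochberg threshold 0.05) in R 4.3.3, after the script was tested on simulated data. The biological coefficient of variation was 1.07. SE is the log2 fold change divided by the root of F. All members were named, with genes of fixed lists reaching 1 CPM in a library (not all are reported here). The 5 genes most like each member and each marker list's first 2 genes were also chosen, of which fewer are printed. The sperm and neutrophil marker lists are not reported here. Crisp1, Gpx5, Siglecf and Col1a1, which led a marker list in a library, were named outside this rule. Eddm3b and Olfr750 were added after their values were seen. Members and lists were chosen with earlier results of these data known. Alternatives were other scalings, filters and tests (DESeq2 1.42.0, limma-voom 3.58.1), a replicate block, a fit without the control, and leaving out each replicated library.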

Additional observations from a re-analysis of the deposited data

How the results depend on the processing

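edgeR called 0 genes in each comparison under every scaling and filter run and with each replicated library left out (lowest and highest count 0). DESeq2 called 93 genes in curcumin-treated against diabetes, 55 in diabetes against control and 71 in curcumin-treated against control. No member was called under any alternative: the lowest adjusted p was 0.535 with DESeq2 and 0.498 with a library left out. Of 248 member fold changes refitted with all libraries of the comparison, 231 kept their sign and 17 reversed. Of 105 with a library left out, 84 kept it and 21 reversed. In the comparisons with the control, some of these fits left out a library of neither compared group, so a kept sign there says little. For Rnase9 in diabetes against control, the value was -0.155 with all libraries and -0.156 without curcumin-treated 1. In curcumin-treated against diabetes, limma-voom gave 2.53 for Rnase9, 0.96 for Rnase11 and 2.03 for Rnase13. The replicate numbers do not pair the libraries by any label, and same-numbered libraries deviated apart (correlation -0.41). The replicate block called 0 genes in each comparison. It reversed Rnase11 (0.15) and Rnase13 (0.039) in curcumin-treated against diabetes, Rnase6 (0.11) and Ang (-0.014) in diabetes against control, and Rnase12 (2.39) in curcumin-treated against control. A crossed replicate block, chosen after seeing the data, called 0 genes and reversed Rnase9 (1.06) and Rnase13 (0.57) in the first comparison, Rnase9 (0.16), Rnase13 (0.086) and Rnase6 (0.35) in the second, and Rnase9 (1.22), Rnase10 (0.97), Rnase12 (2.60) and Rnase13 (0.66) in the third. The cause of these reversals was not tested.

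With 1 library left out, log2 fold changes in curcumin-treated against diabetes ran from -9.88 to 17.71 for Rnase9, -9.41 to 12.74 for Rnase10, -4.80 to 8.92 for Rnase11, -3.81 to 12.76 for Rnase12, -9.58 to 15.89 for Rnase13, -2.06 to 0.51 for Rnase4, -0.45 to 1.45 for Rnase6 and -1.17 to -0.12 for Ang. In diabetes against control they ran from -18.84 to 0.84 for Rnase9, -13.27 to 0.29 for Rnase12 and -16.89 to 0.53 for Rnase13. They ran from -0.64 to 1.92 for Rnase4 and -1.29 to 0.61 for Rnase6. Ranges on 1 side of 0 were -13.29 to -0.06 for Rnase10, -10.99 to -0.12 for Rnase11, 0.17 to 0.40 for Ang and 5.01 to 6.24 for Rnase1. The lowest values of Rnase9, Rnase11 and Rnase13 stand on 0 counts in diabetes 2, and every value of Rnase1 stands on 0 counts in control 1. All of these depend on the count added by the fit. In curcumin-treated against control, only ranges that cross 0 are given. These were -10.47 to 0.45 for Rnase10, -4.52 to 0.45 for Rnase12, -0.25 to 0.48 for Rnase6 and -0.88 to 0.17 for Ang. The lone library left in a group was assumed to vary like the others, and Rnase1 had no value without curcumin-treated 1. With TMM factors the summed CPM of the 9 genes was 5603 in control 1, 7374 and 191.1 in diabetes 1 and 2, and 86.2 and 6565 in curcumin-treated 1 and 2. Shares were also taken over the 9 members without Rnase4 and Ang. The largest was then Rnase10 with 47.3% in control 1 and 55.0% in curcumin-treated 2, and Rnase9 with 47.6% in diabetes 1. It was Rnase6 with 89.8% in diabetes 2 and Rnase12 with 49.9% in curcumin-treated 1. Ear2 and the other family genes outside the 9 are in none of these sums. Depth limits Rnase9, Rnase11 and Rnase13 in diabetes 2 and Rnase1 in control 1 to below 0.118 CPM.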
